A study of Mus musculus with 6 samples.

Results

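The angiopoietins, their Tie receptors, 2 angiopoietin-like proteins, apelin with its receptor, and endocan form a small set of secreted signals and receptors of the blood vessel wall. The 9 genes were chosen by name, with earlier results of these data known and by no rule on their values: *Angpt1*, *Angpt2*, *Tek*, *Tie1*, *Angptl2*, *Angptl4*, *Apln*, *Aplnr* and *Esm1*. They are 9 of the 17441 genes listed in the data, and all 9 passed the filter that left 13120 genes for testing. RNA of mouse heart was sequenced 3 days after surgery, in tissue below the ligature, to compare infarcted with sham-operated myocardium and *Card9*-deficient with wild-type myocardium. The groups were WT sham (wild type, sham operation), WT MI (wild type, ligation of the left coronary artery to induce myocardial infarction) and *Card9* KO MI (*Card9* KO, the same ligation). All mice were male and labelled as 12 weeks old, and the study's strains were on a C57BL/6 background. *Card9* encodes an adapter of innate immune receptors in myeloid cells, and as the labels give it the KO was of the animal, with no cell type named. Sham-operated *Card9* KO hearts were not analysed here, which means that effects of genotype and of infarction cannot be told apart between *Card9* KO MI and WT sham. Each group had 2 libraries. The labels do not say that these were separate animals, so p-values measure only the spread between these samples, which may be technical.

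Angiopoietin-1 from perivascular cells activates the receptor tyrosine kinase TIE2, encoded by *Tek*, and keeps vessels quiet and tight. Angiopoietin-2 is released by endothelial cells and competes for the same receptor, and TIE1 pairs with TIE2 and tunes its signal. Apelin is made by sprouting endothelial tip cells and acts on a G protein-coupled receptor of the endothelium, in cardiac tissue also on heart muscle.

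Values are FPKM, fragments scaled to transcript length and to the size of the library, which allow levels of different genes to be set side by side per length. Differences were tested with limma on log2(FPKM + 1) over all 13120 genes, with Benjamini-Hochberg adjustment, and a gene was called at an adjusted p below 0.05. The depth was estimated at 3000000 to 4278000 fragments per library from the steps between low values, and the libraries listed 14935 to 15852 genes. The targeted gene *Card9* measured 0.99 and 1.03 FPKM with WT sham, 3.39 and 5.08 with WT MI, and 9.85 and 6.94 with *Card9* KO MI. Since it was not lower where the label says KO, all directions between these libraries and WT MI rest on the label. Gene-level values leave unknown from which part of *Card9* the fragments came, so they do not settle whether the allele was deleted. The endothelial markers *Pecam1*, at 60.73 to 99.68 FPKM, and *Cdh5*, at 82.64 to 128.2 FPKM, were present in every library. In bulk tissue, fewer cells of a type and less RNA per cell cannot be told apart.

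In WT MI against WT sham, 4 of the 9 genes rose (*Angpt2*, *Angptl2*, *Angptl4* and *Apln*) and 0 fell, where 27.7% of all genes tested were called higher and 9.39% lower. In *Card9* KO MI against WT MI, 1 of the 9 rose (*Angptl4*) and 0 fell, with 0.816% of all genes called higher and 0.587% lower. In *Card9* KO MI against WT sham, 5 rose (the first 4 and *Esm1*) and 0 fell, with 34.8% of all genes called higher and 14.3% lower. The libraries of the groups compared did not overlap for 7, 4 and 8 of the 9 genes in these comparisons, against 70.4%, 52.7% and 76.1% of all genes. At an unadjusted p below 0.05, limma gave 5, 3 and 6 of the 9 genes as higher and 0 as lower. Added were *Esm1* in the first comparison, *Tie1* and *Aplnr* in the second and *Aplnr* in the third. Of all 13120 genes, 6137, 2629 and 7355 reached that threshold in either direction, which is the background for later list counts at it. By the study's screen 2, 0 and 2 passed, *Angptl4* and *Apln* in both comparisons with WT sham. The share of all genes passing the screen was not computed. WT MI and WT sham each enter 2 of the comparisons, so the comparisons are not independent of each other.

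**Figure D1:**
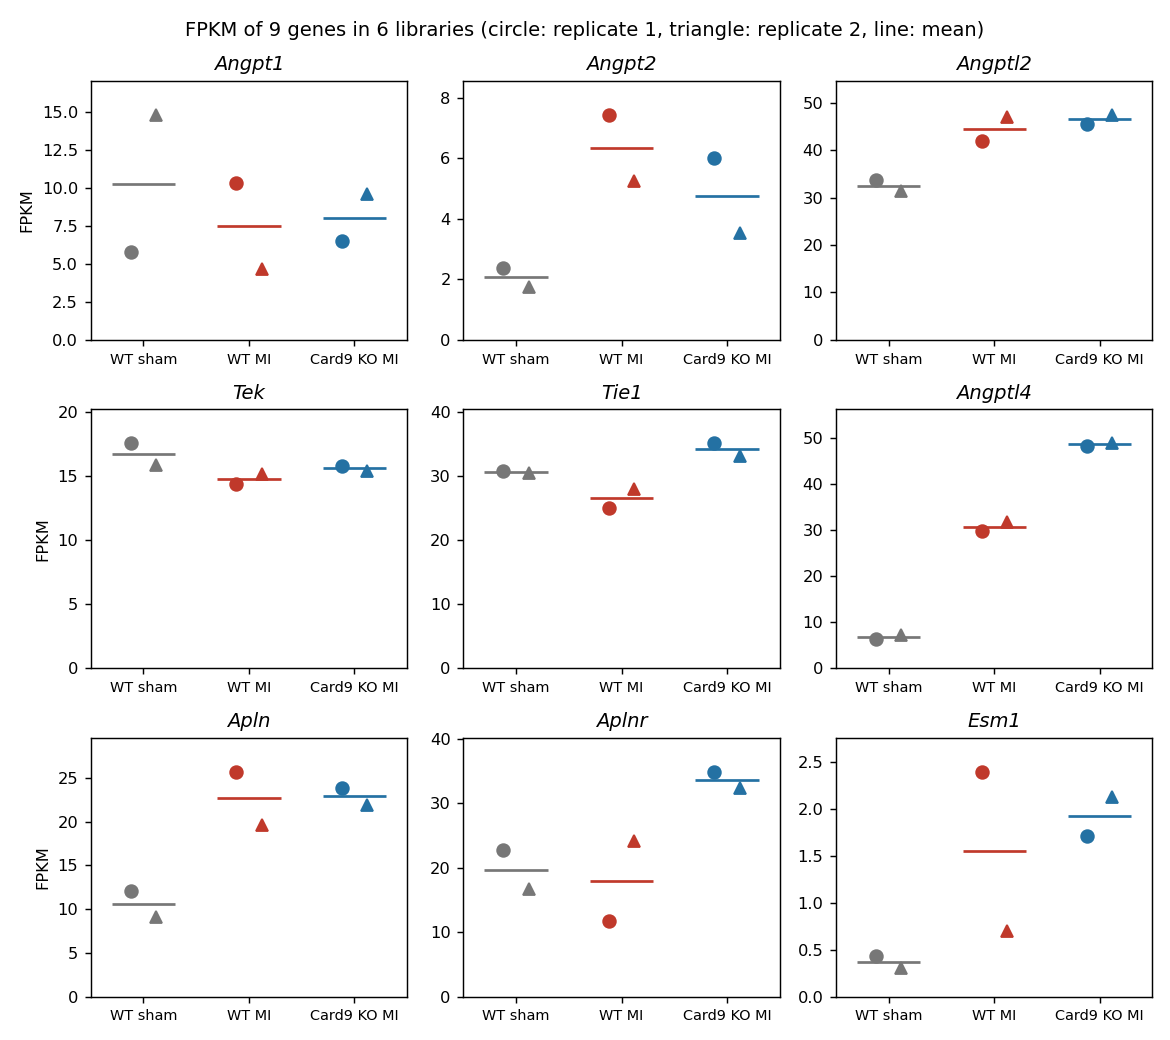
FPKM of the 9 genes (vertical axes, each from 0) in the 3 groups, with replicate 1 as a circle, replicate 2 as a triangle and the group mean as a line. *Angptl4* separates all 3 groups, from 6.28 and 7.24 with WT sham to 48.31 and 48.81 with *Card9* KO MI, while *Angpt1* overlaps throughout.

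RefSeq promoters of the GRCm38.p6 assembly, running from 250 bases before to 50 after the start, were matched for 5 of the 9 genes: *Angptl2*, *Apln*, *Esm1*, *Tek* and *Tie1*. *Angpt1*, *Angpt2*, *Angptl4* and *Aplnr* are named only. Both strands were searched for the core of the hypoxia response element, ACGTG or GCGTG, and for GGAAG, a core that ETS factors of the endothelium bind. Positions count from 1 at the start site, with bases before it negative. The 3 sequences below are printed because *Apln* was called higher after infarction, *Esm1* alone held a hypoxia core, and *Tie1* held the most ETS cores. Capitals mark GGAAG or its reverse complement in *Apln* and *Tie1*, and GCGTG in *Esm1*.
Apln chrX:48034804-48035103, minus strand: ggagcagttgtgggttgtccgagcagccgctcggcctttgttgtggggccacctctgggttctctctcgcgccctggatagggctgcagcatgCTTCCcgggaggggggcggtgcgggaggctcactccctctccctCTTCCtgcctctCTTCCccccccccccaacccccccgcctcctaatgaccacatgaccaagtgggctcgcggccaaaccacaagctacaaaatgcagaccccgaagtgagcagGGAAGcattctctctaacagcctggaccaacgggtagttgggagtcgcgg
Esm1 chr13:113209409-113209708, plus strand: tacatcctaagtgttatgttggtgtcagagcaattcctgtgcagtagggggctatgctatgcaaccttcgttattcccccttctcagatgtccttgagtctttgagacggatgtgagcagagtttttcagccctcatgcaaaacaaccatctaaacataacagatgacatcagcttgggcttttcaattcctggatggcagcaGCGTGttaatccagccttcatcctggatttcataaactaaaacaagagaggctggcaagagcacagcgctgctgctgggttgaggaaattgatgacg
Tie1 chr4:118489800-118490099, minus strand: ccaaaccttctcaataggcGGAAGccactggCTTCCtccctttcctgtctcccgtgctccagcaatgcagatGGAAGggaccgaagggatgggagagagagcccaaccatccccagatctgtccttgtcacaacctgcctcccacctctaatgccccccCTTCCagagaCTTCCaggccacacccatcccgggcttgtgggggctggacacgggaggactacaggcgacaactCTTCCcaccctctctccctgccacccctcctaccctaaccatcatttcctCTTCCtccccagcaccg
*Esm1* held 1 hypoxia core, at position -47, and the windows of *Angptl2*, *Apln*, *Tek* and *Tie1* held 0, where 43.8% of the 27025 promoters in the table held at least 1. ACGTG alone was in 19.7% of these promoters. The share with GCGTG was 32.5%. GGAAG occurred 7 times in *Tie1*, 4 times in *Apln*, 2 times in *Angptl2*, and 0 times in *Tek* and *Esm1*, and 71.1% of all promoters held it. The 2 Tie receptor genes thus differed in this count, *Tie1* with the most and *Tek*, like *Esm1*, with 0. A match of 5 letters is a description of the window and not a site.

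Of the angiopoietin ligands, *Angpt2* rose after infarction and *Angpt1* did not pass the test, and the difference between them was not tested. *Angpt2* (NCBI gene 11601; mm9 chr8:18690263-18741562, minus strand), the context-dependent antagonist of TIE2 stored in endothelial granules, had an FPKM of 2.38 and 1.75 for WT sham, 7.44 and 5.25 for WT MI, and 6.0 and 3.52 for *Card9* KO MI. Every infarct library lay above both sham libraries, and the 2 infarct groups overlapped. The group means were 2.07 ± 0.446, 6.35 ± 1.55 and 4.76 ± 1.75 (SD, n = 2), so WT MI was 3.07-fold above WT sham. The log2 fold change was 1.25 (standard error 0.26, limma adjusted p = 0.0079), and without WT MI replicate 1 it was 1.04 with an adjusted p of 0.0614. Against WT sham, *Card9* KO MI was 2.31-fold higher (log2 fold change 0.88, limma adjusted p = 0.0248), a call that was lost under upper-quartile scaling (adjusted p = 0.0562), under quantile normalization (0.188), with no filter on low values (0.0587), and without WT sham replicate 2 (0.110) or *Card9* KO MI replicate 1 (0.154). Between *Card9* KO MI and WT MI the log2 fold change was -0.37 with a 95% interval from -0.98 to 0.24 (limma adjusted p = 0.481). *Angpt2* lies within *Mcph1* on the opposite strand, and the annotated exons of the 2 genes share 0 bases.

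*Angpt1* (NCBI gene 11600; mm9 chr15:42256273-42508523, minus strand), the TIE2 agonist of mural and interstitial cells, had the largest standard error of the 9 genes in limma, 0.44 on the log2 scale. Its FPKM was 5.76 and 14.83 for WT sham, 10.34 and 4.64 for WT MI, and 6.49 and 9.59 for *Card9* KO MI. The libraries of all 3 groups overlapped. The WT MI against WT sham log2 fold change of -0.37 had a 95% interval from -1.40 to 0.66 (limma adjusted p = 0.549), which covers both a marked fall and a rise. For *Card9* KO MI the log2 fold change was 0.16 against WT MI and -0.22 against WT sham (limma adjusted p = 0.886 and 0.714). Leaving out 1 library at a time turned its sign in every comparison. The gene shares 283 of its 4256 exon bases with the opposite-strand noncoding gene *Gm17473*, and the strand used in counting is not given in the sources used here.

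The balance of the ligands was read as the ratio of *Angpt2* to *Angpt1* FPKM in the same library. It was 0.413 and 0.118 for WT sham, 0.720 and 1.13 for WT MI, and 0.925 and 0.367 for *Card9* KO MI. Both WT MI libraries lay above both sham libraries, and 1 library labelled *Card9* KO MI lay below the higher sham library. As a difference of log2(FPKM + 1), WT MI exceeded WT sham by 1.62, *Card9* KO MI exceeded WT sham by 1.10, and *Card9* KO MI minus WT MI was -0.52. No test was run on these values, and an exact permutation test of 2 against 2 libraries cannot go below p = 0.33.

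Neither Tie receptor passed the test in any of the 3 comparisons on the deposited scale. *Tek* (NCBI gene 21687; mm9 chr4:94405980-94541667, plus strand), which encodes TIE2, had an FPKM of 17.56 and 15.86 for WT sham, 14.36 and 15.15 for WT MI, and 15.81 and 15.39 for *Card9* KO MI. All 6 values lay within a narrow band, with WT MI lowest and WT sham highest. The log2 fold change of WT MI against WT sham was -0.17 (95% interval -0.44 to 0.10, limma adjusted p = 0.298), and those of *Card9* KO MI were 0.08 against WT MI and -0.09 against WT sham (adjusted p = 0.770 and 0.543).

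*Tie1* (NCBI gene 21846; mm9 chr4:118143796-118162666, minus strand), the partner receptor of TIE2, also failed the test on the deposited scale, though its groups stood apart. Its FPKM was 30.85 and 30.49 for WT sham, 25 and 28.05 for WT MI, and 35.12 and 33.19 for *Card9* KO MI, so no groups overlapped. The log2 fold change was -0.20 for WT MI against WT sham (95% interval -0.45 to 0.04, limma adjusted p = 0.169) and 0.35 for *Card9* KO MI against WT MI (standard error 0.11, 95% interval 0.11 to 0.60, adjusted p = 0.131). Neither passed the test.

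The receptors depend on the scale used. The median log2 fold change of all genes in WT MI against WT sham was 0.19 on the deposited scale, 0.003 under upper-quartile scaling and -0.09 under quantile normalization. With this shift the calls of WT MI against WT sham went from 3637 higher and 1232 lower to 2603 and 2161 under upper-quartile scaling, and to 2198 and 2447 under quantile normalization. Under these scalings *Tek* was called lower in WT MI, with log2 fold changes of -0.37 and -0.38 (limma adjusted p = 0.0377 and 0.0349). *Tie1* was likewise called lower, at -0.41 and -0.40 (adjusted p = 0.0179 and 0.0219), and at -0.35 with scaling that left out the 100 most abundant genes (adjusted p = 0.0337). *Tie1* in *Card9* KO MI against WT sham changed sign between scalings, from 0.15 to -0.10 and -0.04, and passed the test in none of them. *Tek* was called lower in *Card9* KO MI against WT sham under upper-quartile scaling and quantile normalization, at -0.33 and -0.36 (adjusted p = 0.0454 and 0.0331). Read against the endothelial cell markers of the same library, *Tek* was 0.58 and 0.61 below the mean log2(FPKM + 1) of 16 markers in WT sham, with differences of -1.02 and -0.96 for WT MI and of -1.10 and -1.05 for *Card9* KO MI. Both infarct groups therefore lay below WT sham for *Tek* on this measure. *Tie1* went from 0.20 and 0.29 in WT sham to -0.26 and -0.12 in WT MI and 0.01 in each library labelled *Card9* KO MI, again without overlap between the groups. The marker mean itself was 4.79 and 4.68 for WT sham, 4.96 and 4.98 for WT MI, and 5.17 and 5.09 for *Card9* KO MI.

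**Figure D2:**
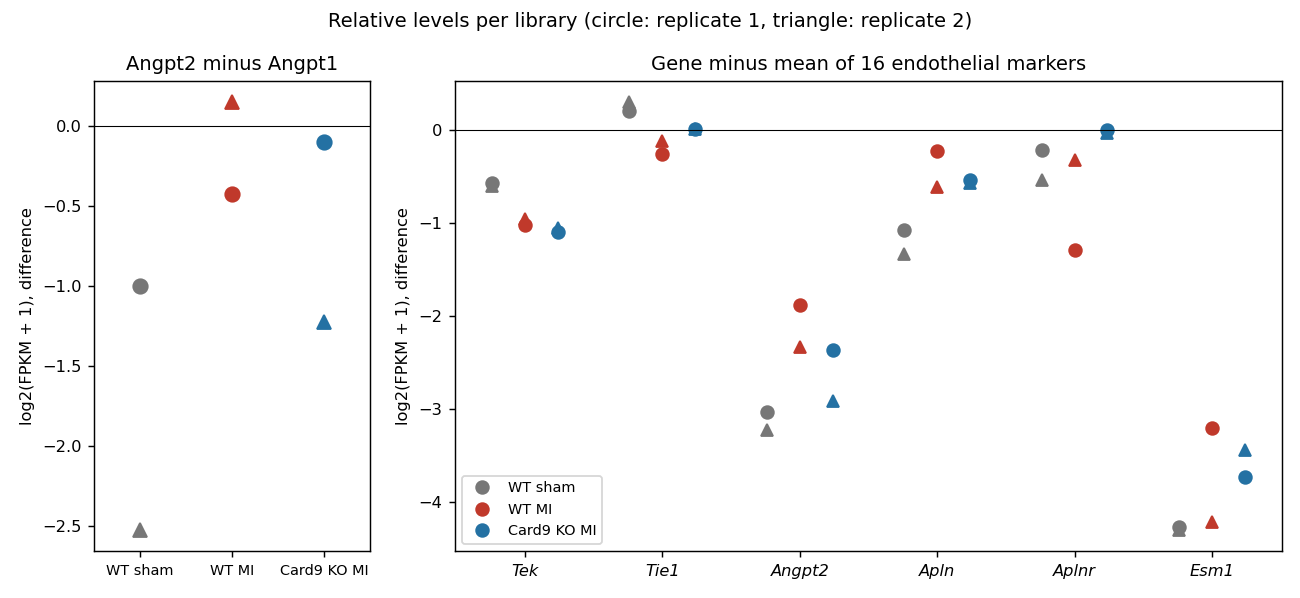
Left, log2(FPKM + 1) of *Angpt2* minus that of *Angpt1* in each library; right, log2(FPKM + 1) of 6 genes minus the mean of 16 endothelial markers, with groups by colour and replicates by symbol. *Tek* sits at -0.58 and -0.61 in WT sham and between -1.10 and -0.96 in the infarct libraries, while *Apln* and *Angpt2* sit higher in every infarct library than in WT sham.

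*Angptl4* had the largest log2 fold change of the 9 genes against WT sham in both infarct groups, and was the only one called between the infarct groups, where *Aplnr* had the larger difference without a call. *Angptl4* (NCBI gene 57875; mm9 chr17:33910695-33918520, minus strand) encodes a secreted inhibitor of lipoprotein lipase that is induced by hypoxia, fasting and PPAR agonists. Its FPKM was 6.28 and 7.24 for WT sham, 29.72 and 31.76 for WT MI, and 48.31 and 48.81 for *Card9* KO MI. The 3 groups lay far apart, and replicates were within a few FPKM of each other. The means were 6.76 ± 0.679, 30.74 ± 1.44 and 48.56 ± 0.354 (SD, n = 2), a 4.55-fold rise in WT MI over WT sham and a 7.18-fold rise in *Card9* KO MI over WT sham. The log2 fold changes were 2.03 (standard error 0.11, limma adjusted p = 3.29e-05) and 2.68 (adjusted p = 6.84e-06). Both were called under all 11 alternative settings and with each of the 6 libraries left out.

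The libraries labelled *Card9* KO MI had 1.58 times the *Angptl4* FPKM of WT MI. On the log2 scale the difference was 0.64 (standard error 0.11, 95% interval 0.38 to 0.91, limma adjusted p = 0.0472). The size was stable, from 0.58 to 0.66 over the settings and from 0.60 to 0.69 with a library left out. The call was not: it held in 4 of 11 settings, with adjusted p from 0.0305 to 0.108, and in 1 of 6 leave-outs, with adjusted p from 0.0499 to 0.278. It was lost without WT sham replicate 2, without either WT MI library and without either library labelled *Card9* KO MI. With the replicate number as a block the adjusted p was 0.0746.

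*Angptl4* stood near the bottom of the order of the 9 genes in WT sham and at its top in *Card9* KO MI. In WT sham the order by mean FPKM was *Angptl2*, *Tie1*, *Aplnr*, *Tek*, *Apln*, *Angpt1*, *Angptl4*, *Angpt2* and *Esm1*, where the libraries of *Aplnr* and *Tek*, of *Apln* and *Angpt1*, and of *Angpt1* and *Angptl4* overlapped. In WT MI *Angptl4* was second behind *Angptl2*, without overlap, ahead of *Tie1*, *Apln*, *Aplnr* and *Tek*, whose neighbours overlapped, as did *Angpt1* and *Angpt2*. In *Card9* KO MI it was first, at 48.56 against 46.5 for *Angptl2*, and only *Tie1* and *Aplnr* overlapped with a neighbour.

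*Angptl2* (NCBI gene 26360; mm9 chr2:33071589-33103237, plus strand), a secreted proinflammatory relative of the angiopoietins, rose less. Its FPKM was 33.63 and 31.28 for WT sham, 41.98 and 46.91 for WT MI, and 45.60 and 47.44 for *Card9* KO MI. All infarct libraries lay above both sham libraries, and the infarct groups overlapped. WT MI was 1.37-fold above WT sham (log2 fold change 0.44, standard error 0.10, limma adjusted p = 0.0130) and *Card9* KO MI 1.43-fold (0.51, adjusted p = 0.00510). The first call did not hold under upper-quartile scaling (log2 fold change 0.23, adjusted p = 0.121), quantile normalization (0.26, adjusted p = 0.0895) or scaling without the 100 most abundant genes (0.29, adjusted p = 0.0625), nor without WT sham replicate 2 (adjusted p = 0.0692) or WT MI replicate 2 (0.0891). The second did not hold under upper-quartile scaling (adjusted p = 0.0732). Between the infarct groups the log2 fold change was 0.07 (95% interval -0.17 to 0.31). *Angptl2* lies within *Ralgps1* on the opposite strand, with 0 exon bases shared.

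Other relatives were scarce. *Angptl1* and *Angptl6* were tested, and neither was called by limma in any of the 3 comparisons, also at an unadjusted p below 0.05. *Angpt4*, *Angptl7* and *Angptl8* did not pass the filter, and the highest value among them was 1.07 FPKM.

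The apelin ligand rose with infarction, and its receptor did not pass the test. *Apln* (NCBI gene 30878; mm9 chrX:45378323-45388030, minus strand) had an FPKM of 12.08 and 9.16 for WT sham, 25.68 and 19.59 for WT MI, and 23.83 and 21.93 for *Card9* KO MI. All 4 infarct libraries lay above both sham libraries, and the *Card9* KO MI values lay inside the range of WT MI. The rise over WT sham was 2.13-fold in WT MI (1.02 on the log2 scale, standard error 0.17, limma adjusted p = 0.00317) and 2.15-fold in *Card9* KO MI (1.05, adjusted p = 0.00184), and both calls held in all 11 settings and all 6 leave-outs. Between the infarct groups the log2 fold change was 0.03 with a 95% interval from -0.38 to 0.43, and it was -0.01 under upper-quartile scaling.

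*Aplnr* (NCBI gene 23796; mm9 chr2:84976517-84980079, plus strand), which encodes the apelin receptor, had an FPKM of 22.75 and 16.67 for WT sham, 11.74 and 24.15 for WT MI, and 34.91 and 32.33 for *Card9* KO MI. The WT MI libraries lay on either side of both sham libraries, and both libraries labelled *Card9* KO MI lay above all others. *Card9* KO MI was 1.87-fold above WT MI by means, a log2 fold change of 0.95 (standard error 0.29, 95% interval 0.27 to 1.63) that was not called (limma adjusted p = 0.139). It ranged from 0.46 to 1.44 with a library left out and was called in 0 of 11 settings and 0 of 6 leave-outs. Against WT sham, *Card9* KO MI was 1.71-fold higher (log2 fold change 0.76, adjusted p = 0.0646), and this was called when the WT MI libraries were not in the fit (adjusted p = 0.0112) or when either of them was left out (0.0103 and 0.0105). WT MI against WT sham gave -0.19 (95% interval -0.87 to 0.49), with a sign that turned without WT sham replicate 1 or WT MI replicate 1.

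*Esm1* (NCBI gene 71690; mm9 chr13:113999867-114008306, plus strand) encodes endocan, a proteoglycan secreted by endothelial tip cells. It was the lowest of the 9 genes in every library, with an FPKM of 0.44 and 0.31 for WT sham, 2.40 and 0.70 for WT MI, and 1.72 and 2.13 for *Card9* KO MI. Infarct libraries all lay above sham libraries, by little in WT MI replicate 2. The values correspond to an estimated 2.91 and 1.95 fragments for WT sham, 20.23 and 5.75 for WT MI, and 15.43 and 18.4 for *Card9* KO MI, so WT sham was at or under 3 fragments. Rounded to whole fragments and pooled over the libraries, these were 26 for WT MI, 33 for *Card9* KO MI and 5 for WT sham. The ratio over WT sham was 4.03 for WT MI (95% counting interval 1.52 to 13.4) and 4.83 for *Card9* KO MI (1.88 to 15.9). The intervals cover counting error only and take the estimated fragments as exact. In limma the log2 fold change of FPKM + 1 was 0.81 for WT MI (adjusted p = 0.0965) and 1.09 for *Card9* KO MI (adjusted p = 0.0291). The first was called without WT MI replicate 2 (1.31, adjusted p = 0.0174). The second was lost without any 1 of the WT sham or *Card9* KO MI libraries (adjusted p from 0.0711 to 0.116) under quantile normalization (0.227) and with no filter on low values (0.0517). The infarct groups differed by 0.28 (95% interval -0.50 to 1.06).

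**Figure D3:**
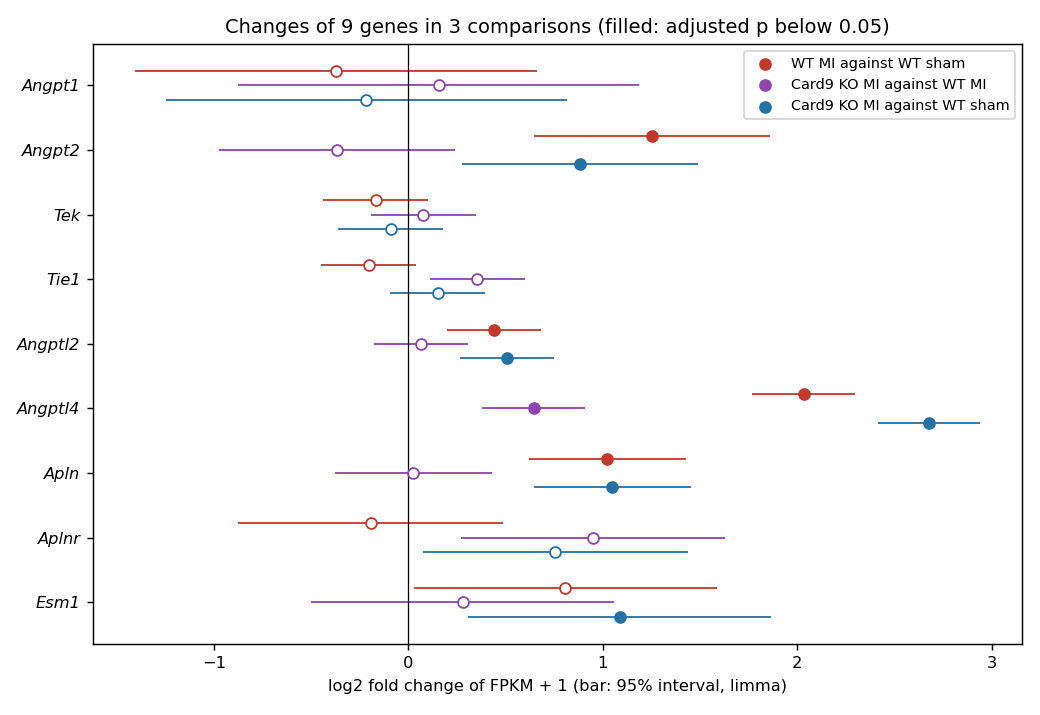
Log2 fold change of FPKM + 1 (horizontal axis) for the 9 genes in the 3 comparisons (colours), with 95% intervals from limma as bars and filled points at an adjusted p below 0.05. *Angptl4* is filled in all 3 comparisons at 2.03, 0.64 and 2.68, and the intervals of *Angpt1* reach from below 0 to above 0 in each.

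Within the infarct groups, 1 library carried many of the extremes. WT MI replicate 1 was the highest of the 4 infarct libraries for 4 of the 9 genes (*Angpt1*, *Angpt2*, *Apln* and *Esm1*) and the lowest for *Tek*, *Tie1*, *Angptl2*, *Angptl4* and *Aplnr*. Its neutrophil marker sum was 211.75 FPKM, against 92.89 in WT MI replicate 2 and 59.84 and 46.73 in *Card9* KO MI. Of the hypoxia genes, *Slc2a1* was highest in it, at 33.51 FPKM against 19.07 to 23.24 in the other 3. *Car9* was highest in it too, at 5.31 FPKM against 0.91 to 2.26, as were *Adm*, *Bnip3*, *Pdk1*, *Ndrg1*, *Hk2* and *Aldoa*. Only *Ankrd37* was lowest in it, at 2.47 FPKM against 2.54 to 4.64. *Vegfa*, at 107.14 FPKM, lay within the others' range of 95.66 to 122.11, and *Pgk1*, *Ldha*, *Egln3* and *P4ha1* also lay within range. The endothelial gene *Kdr* was lowest in it, at 34.37 FPKM against 39.27 to 41.74, while *Flt1* was highest, at 28.51 against 19.63 to 25.76. The mean log2(FPKM + 1) of the endothelial markers was 4.96 in it, 4.98 in WT MI replicate 2, and 5.17 and 5.09 in *Card9* KO MI. The part of these differences in the values of the 9 genes was not tested.

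Vessel genes other than the 9 gave the setting. Of 16 endothelial markers, 6 rose and 1 fell in WT MI against WT sham, with a median log2 fold change of 0.19, equal to that of all genes tested, and under both upper-quartile scaling and quantile normalization 2 rose and 2 fell. *Plvap*, a protein of endothelial diaphragms, rose by a log2 fold change of 1.83 (limma adjusted p = 2.65e-04), whereas *Kdr*, the main VEGF receptor, fell by 0.68 (adjusted p = 0.00277). *Cdh5*, the adherens junction cadherin, was at 0.18 (adjusted p = 0.130). Between the infarct groups, 0 of 16 markers were called by limma, 3 were higher and 1 lower at an unadjusted p below 0.05, and their median was 0.12. Of 10 mural cell markers, 3 rose and 3 fell with infarction, with a median of 0.11 that was -0.08 under upper-quartile scaling, and 1 rose in *Card9* KO MI against WT MI, *Acta2* (log2 fold change 1.19, adjusted p = 0.0388), which myofibroblasts also express.

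Tip cells, the leading cells of a vessel sprout, express *Apln*, *Angpt2* and *Esm1* in development. Of 10 other tip cell and sprouting genes, 6 rose and 0 fell in WT MI against WT sham, with a median log2 fold change of 0.80. The counts were also 6 and 0 under the 3 other scalings. *Igfbp3* rose by 2.57 (limma adjusted p = 1.71e-04) and the chemokine receptor gene *Cxcr4* by 1.65 (adjusted p = 0.00190), which leukocytes express as well. Comparing *Card9* KO MI with WT MI, 2 of 10 rose, the basement membrane collagens *Col4a1* (0.65, adjusted p = 0.0472) and *Col4a2* (0.57, adjusted p = 0.0493), and the median was 0.43. Only *Col4a1* was called under upper-quartile scaling and under scaling without the 100 most abundant genes, and neither was called with any 1 of the 4 infarct libraries left out. At an unadjusted p below 0.05, 6 of the 10 were higher and 0 lower, where 2629 of all 13120 genes reached that threshold in either direction. Of 5 lymphatic endothelial genes tested, 2 rose and 1 fell with infarction, and *Lyve1*, found also on resident macrophages, fell in *Card9* KO MI against WT MI (-1.11, adjusted p = 0.0367).

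*Angptl4* and *Apln* are known to be induced by hypoxia, and other genes of that kind moved in both directions. Of 14 hypoxia-induced genes, 5 rose and 3 fell in WT MI against WT sham, with a median of 0.37. Under upper-quartile scaling 4 rose and 4 fell with a median of 0.19, and quantile normalization gave 4 and 3 with a median of 0.08. The glucose transporter gene *Slc2a1* rose by 1.87 (limma adjusted p = 3.55e-04), while *Vegfa*, at 187.59 and 163.96 FPKM in WT sham, fell by 0.69 (adjusted p = 0.00529). None of the 14 was called between the infarct groups, where the median was -0.15, and at an unadjusted p below 0.05 limma gave 1 higher and 3 lower.

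*Angptl4* is a target of the PPAR lipid receptors, and most of the other targets listed fell in WT MI against WT sham. The median of the cardiomyocyte markers was -0.64 in that comparison. The part of PPAR activity in the values of *Angptl4* was not tested. Of 12 others, 1 rose and 9 fell in WT MI against WT sham, with a median log2 fold change of -0.73. *Pdk4*, which restrains glucose oxidation, fell by 2.19 (limma adjusted p = 0.00441) and *Ucp3*, a mitochondrial carrier, by 2.54 (adjusted p = 0.00109). The one that rose was *Plin2*, which coats lipid droplets in many cell types (1.20, adjusted p = 9.39e-04). Between the infarct groups 0 of the 12 were called, with a median of -0.32. *Pdk4* and *Ucp3* were each at 1.69 there (adjusted p = 0.0884 and 0.0598). At an unadjusted p below 0.05, 3 were higher and 4 lower.

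**Figure D4:**
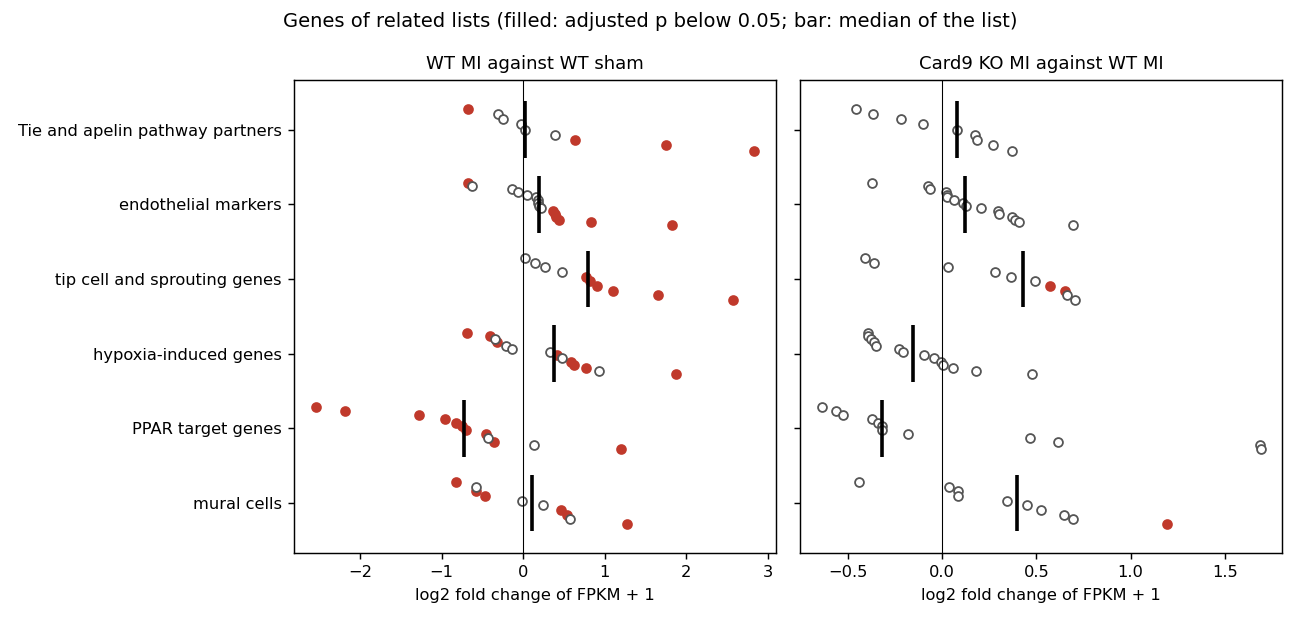
Log2 fold change of FPKM + 1 (horizontal axes) of single genes in 6 related lists, in WT MI against WT sham (left) and *Card9* KO MI against WT MI (right), with filled points at an adjusted p below 0.05 and a bar at each list's median. The tip cell list has a median of 0.80 and the PPAR list of -0.73 at left, and few points are filled at right.

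Among 11 partners of the Tie, apelin and *Angptl4* proteins, 9 were tested, and 3 rose and 1 fell in WT MI against WT sham. Quantile normalization gave 2 and 2, and scaling without the 100 most abundant genes 3 and 2. Upper-quartile scaling, under which 10 passed the filter, gave 2 and 3. *Lpl*, the lipase that angiopoietin-like 4 inhibits, was at 1657.02 and 1758.3 FPKM for WT sham, against 1086.93 and 1047.1 for WT MI, and fell by 0.68 on the log2 scale (limma adjusted p = 0.00264) as *Angptl4* rose. *Dok2*, an adaptor of TIE2 that myeloid cells also use, rose by 1.75 (adjusted p = 3.30e-04), and the other genes that rose were *Pirb*, a leukocyte receptor for angiopoietin-like proteins, and *Svep1*, a matrix ligand of TIE1. With *Card9* KO MI against WT MI 0 of 9 were called, 2 were higher and 2 lower at an unadjusted p below 0.05, and *Lpl* was at -0.36 (adjusted p = 0.134). In *Card9* KO MI against WT sham 3 rose and 1 fell, or 2 and 3 under quantile normalization and 3 and 3 under upper-quartile scaling. The apelin receptor's second ligand gene *Apela* was listed in 0 of the 6 libraries.

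Markers of other cells moved with the groups in which *Angptl4* and the other genes rose. All 10 macrophage markers and all 6 neutrophil markers tested rose in WT MI against WT sham, 7 of 9 fibroblast markers rose and 7 of 10 cardiomyocyte markers fell. The macrophage sum was 421.37 and 359.14 FPKM for WT sham, 1449.98 and 1843.56 for WT MI, and 2936.72 and 2117.47 for *Card9* KO MI, and the cardiomyocyte sum fell from between 48282.11 and 49690.79 to between 25178.9 and 30962.88 in the infarct libraries. Between the infarct groups 3 of 9 fibroblast markers were called higher in *Card9* KO MI, and 0 of 10 macrophage, 0 of 6 neutrophil and 0 of 10 cardiomyocyte markers were called by limma. At an unadjusted p below 0.05, which 2629 of all 13120 genes reached in either direction, 5 macrophage and 5 fibroblast markers were higher there. Lower at that threshold were 2 neutrophil markers, 4 cardiomyocyte markers and 1 fibroblast marker, *Pdgfra* (log2 fold change -0.52). The neutrophil sum was 5.4 to 7.64 FPKM in WT sham and the defining marker *Ly6g* was listed in 0 libraries. The adipocyte-defining *Adipoq* was at 0.19 to 2.38 FPKM and *Lep* was listed in 0 libraries. The part of these cells in the values of the 9 genes was not tested.

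The genes whose profiles over the 6 libraries were most like each of the 9 were found by the root mean square difference of centred log2(FPKM + 1). Nearest to *Angptl4* was *Ptprc*, the common leukocyte antigen gene, with a difference of 0.0887 and an FPKM of 2.54 and 3.15 for WT sham, 12.8 and 13.08 for WT MI, and 20.55 and 20.47 for *Card9* KO MI, followed by the mitotic genes *Aurkb* and *Tacc3*. Nearest to *Tie1* was *Adgrl4*, an endothelial adhesion receptor, at 0.0405. *Apln* was closest to *Ttll12*, *Bhlhe40* and *Carhsp1*, and *Angpt2* to *Utp18*, *Stc1* and *Bean1*. *Aplnr* was closest to *Dzip1*, *Esm1* to *Trib3*, *Angptl2* to *Hgs*, *Tek* to *Polg* and *Angpt1* to *Cox6b2*. The 6 libraries hold few degrees of freedom, and these neighbours are a description.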

How the data were processed

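RNA-seq of heart tissue below the ligature gave 6 libraries in 3 groups, which were assigned from the sample labels. The authors extracted RNA with TRIzol, made TruSeq libraries from poly(A) RNA, mapped reads to mm9 with BWA and Bowtie2 and deposited FPKM to 2 decimals per NCBI gene number. FPKM is relative to all fragments of a library, so a change in a few abundant genes shifts the rest. A gene not listed was set to 0. Symbols were matched for 17390 of 17441 numbers, and positions are from GENCODE on mm9. Genes that reached an FPKM of 1 in 2 or more libraries were tested on log2(FPKM + 1) with limma 3.58.1 (lmFit, eBayes with trend) in R 4.3.3, all 3 groups in 1 fit, with Benjamini-Hochberg adjustment. The fit was tested on simulated data first. Read counts were not rebuilt for the tests, because at the estimated depths only 65.5% to 69.9% of low values came out within 0.1 of a whole fragment. The counting intervals of *Esm1* used estimated fragments rounded to whole numbers and share this limit. The text names the 9 genes, *Card9*, genes of fixed lists, and for each of the 9 the 3 nearest profiles. Members and lists were chosen with earlier results of these data known. Alternatives were other added values, filters, scalings and fits, a replicate block, the study's screen (fold of at least 2 and a probability of at least 0.8, on group means) and each library left out.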

Additional observations from a re-analysis of the deposited data

How the results depend on the processing

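In WT MI against WT sham, the number of the 9 genes called was 4, between 3 and 4 with a library left out, and 2 by the study's screen. Upper-quartile scaling and quantile normalization each gave 3 higher and 2 lower (*Tek* and *Tie1* lower, *Angptl2* not called) in place of 4 and 0. For *Card9* KO MI against WT MI it was 1, and 0 with 0.1 added, no filter on low values, upper-quartile scaling, scaling without the 100 most abundant genes, eBayes without trend, a fit of only the 2 groups compared, the replicate block, a fold of at least 2 and the study's screen, and 0 to 1 with a library left out. For *Card9* KO MI against WT sham it was 5, 3 without a filter, with a mean FPKM of at least 5 or with a fold of at least 2, 2 by the screen, and 3 to 6 with a library left out, and each of the former scalings gave 3 higher and 1 lower (*Tek*). Replicate numbers were only shared numbers (correlations of deviations 0.002, 0.02 and -0.008 over 13120 genes), and with the number as a replicate block 4, 0 and 5 of the 9 genes were called. Log2 fold changes that changed sign with a library left out ranged in WT MI against WT sham from -0.99 to 0.24 for *Angpt1* and -0.69 to 0.30 for *Aplnr*. For *Card9* KO MI against WT MI they ranged from -0.35 to 0.66 for *Angpt1*, -0.0121 to 0.14 for *Angptl2*, -0.16 to 0.21 for *Apln* and -0.22 to 0.78 for *Esm1*, and in *Card9* KO MI against WT sham from -0.83 to 0.40 for *Angpt1*. Upper-quartile scaling and quantile normalization gave -0.0106 and -0.0077 for *Apln* in *Card9* KO MI against WT MI, and -0.0962 and -0.0373 for *Tie1* in *Card9* KO MI against WT sham, where scaling without the 100 most abundant genes gave -0.0164. Among other genes, *Cdh5* in WT MI against WT sham was -0.0292 under upper-quartile scaling, *Lyve1* was -0.0432 and -0.0787 under the 2 scalings, and *Vegfa* in *Card9* KO MI against WT MI was 0.0239 under quantile normalization and -0.18 to 0.17 with a library left out, where *Kdr* ranged from -0.0036 to 0.23. The cause was not tested. Where 1 library was left out its group held a lone sample, assumed to vary like the other groups.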
